A study of Mus musculus with 8 samples.

Results

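Glutamate receptors and the proteins that bind them were examined as a set of 33 genes out of the 54752 genes listed for each fetal mouse brain. The members were chosen by name: the AMPA, NMDA, kainate and delta receptor subunits, the metabotropic receptors, 4 auxiliary subunits, 3 PDZ scaffolds and 2 subunits of the calcium/calmodulin-dependent kinase CaMKII.

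RNA-seq had been performed on E15.5 brains of C57BL/6 mice (C57BL/6Slac in the methods) without a genetic change, 1 library per brain. The stress group came from a dam exposed during pregnancy to chronic unpredictable mild stress (CUMS), a daily series of mild stressors that ended the day before collection, and the control group from a dam without CUMS. Of each group 4 brains were analysed here: control females F36 and F37 and control males M30 and M31, and stressed females F34 and F35 and stressed males M28 and M29. Values per brain are always given in this order. All 4 controls were littermates, as were all 4 stressed animals of a second dam. Litter therefore cannot be told apart from condition, and the p-values measure the spread among littermates. The methods describe whole brains, whereas the tissue entry of the quality table reads as a portion of each brain. Library totals ranged from 25320109 (F35) to 29105710 counts (M29), which gave every tested member at least 20 counts in each brain. The tissue carried its label's markers: 15 pan-neuronal genes summed to between 10930 and 11480 CPM (counts scaled to the library total) in the 8 brains, while 7 genes of liver, muscle and skin summed to at most 1.31 CPM.

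Glutamate is the main excitatory transmitter of the brain. AMPA, NMDA and kainate receptors are ion channels of 4 subunits, and metabotropic receptors act through G proteins. Before birth NMDA receptors are built mainly from GluN1 with GluN2B and GluN2D, and most excitatory synapses have not yet formed. Auxiliary subunits set the gating and surface delivery of the channels, PDZ scaffolds such as GRIP and PICK1 anchor and recycle them, and CaMKII is activated by the calcium they admit.

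Promoter windows from RefSeq (GRCm38.p6, the same build as mm10) were found for 22 of the 33 members, 9 of them among the genes that fell under stress. The promoters of 4 members, each 250 bases upstream of the annotated start on the gene's strand, are shown because they hold parts of RE1, the element bound by the neuronal gene repressor REST, or, for *Camk2b*, because it had the smallest p of all members. Capitals mark the left part of RE1 (TTCAGCACC), its right part (GGACAGCGC), on either strand, and the GC box (GGGCGG).
Gria2, chr3:80802836-80803085, minus strand: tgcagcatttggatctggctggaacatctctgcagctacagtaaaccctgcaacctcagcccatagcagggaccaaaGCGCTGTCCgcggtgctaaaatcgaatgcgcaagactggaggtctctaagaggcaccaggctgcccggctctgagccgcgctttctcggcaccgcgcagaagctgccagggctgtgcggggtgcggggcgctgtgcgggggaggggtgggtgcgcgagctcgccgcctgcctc
Grip2, chr6:91807394-91807643, minus strand: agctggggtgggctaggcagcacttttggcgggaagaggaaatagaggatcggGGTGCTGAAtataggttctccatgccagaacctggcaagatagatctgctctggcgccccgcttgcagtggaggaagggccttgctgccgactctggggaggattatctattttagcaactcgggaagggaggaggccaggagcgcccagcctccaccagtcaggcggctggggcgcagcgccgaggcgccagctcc
Grm2, chr9:106656110-106656359, minus strand: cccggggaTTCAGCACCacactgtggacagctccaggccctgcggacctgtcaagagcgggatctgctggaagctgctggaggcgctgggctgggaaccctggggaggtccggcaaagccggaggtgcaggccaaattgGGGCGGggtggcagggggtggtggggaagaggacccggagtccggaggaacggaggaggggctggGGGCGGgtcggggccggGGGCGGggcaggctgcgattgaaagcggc
Camk2b, chr11:6065749-6065998, minus strand: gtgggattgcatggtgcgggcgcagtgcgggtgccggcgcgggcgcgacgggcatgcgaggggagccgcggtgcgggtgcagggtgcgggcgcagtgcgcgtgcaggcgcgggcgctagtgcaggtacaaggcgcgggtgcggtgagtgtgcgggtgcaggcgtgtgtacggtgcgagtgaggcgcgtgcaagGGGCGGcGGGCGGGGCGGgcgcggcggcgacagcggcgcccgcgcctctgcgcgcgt

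The RE1 part lay 173 bases before the start in *Gria2*, 197 in *Grip2* and 242 in *Grm2*, and no window of a member held both parts. The windows of *Gria2* and *Grm2* lie outside the counted gene, and those of *Grip2* and *Camk2b* lie inside its span, before an inner start. Over all genes with a window, 0.348% held the left part and 0.363% the right part. A GC box was found in 14 of the 22 members, including 6 of the 9 that fell, against 35.4% of all genes. Windows of members were rich in G and C, with a median of 62.4% against 52.4% over all windows, and held a median of 15 CpG pairs against 6. The cyclic AMP response element (TGACGTCA) was in no member's window and in 1.77% of all genes. Of the other motifs searched on both strands, the CCAAT box was in 8 members and 37.5% of all genes, the E-box (CANNTG) in 12 and 69.3%, and the TATA box (TATAAA) in 2 and 14.3%. These matches are descriptions of the letters and were not tested as sites.

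Of the 33 members, 32 passed the filter on low counts. *Grm6*, a receptor of retinal bipolar cells, had 0 to 3 counts per brain, shared 11.1% of its exon bases with another gene and was not tested. In the stress group 16 members fell and 0 rose (adjusted p < 0.05, edgeR's quasi-likelihood test with sex in the model). Over all 17865 genes tested, 7.27% were called lower and 6.49% higher, or 2.93% and 14.9% when the libraries were scaled to pan-neuronal markers. DESeq2 called 13 of the 16, all lower (5.1% of all genes), and 0 members higher. Before adjustment 26 of the 32 lay past the threshold, against 4800 of the 17865 genes in either direction. Only *Grip1* of the 26 was higher. The log2 fold change (Log2FC, stress vs. control) was below 0 in 29 of the 32, against 49.4% of all genes, and its median was -0.17, against 0.0015 over all genes. Every stressed brain lay below every control brain in 10 members (8.22% of all genes) and above in 1 (8.20% of all genes). Scaled to pan-neuronal markers, 4 members had all stressed brains below the controls, and the share of all genes was not computed on that scale. The drops were small, between 6.72% (*Grik5*) and 19.3% (*Grm4*) for the called members. Losses were called in NMDA receptor subunits (5 of 7 tested), metabotropic receptors (4 of 6) and kainate receptor subunits (3 of 5). They were also called in auxiliary subunits (2 of 4), CaMKII subunits (1 of 2) and PDZ scaffolds (1 of 3). By contrast 0 of 4 AMPA receptor subunits passed the test, also by DESeq2 (3 of 4 before adjustment), and 0 of 1 delta subunits. The kainate receptor calls, *Grik1*, *Grik3* and *Grik5*, were all lost under pan-neuronal scaling. The difference between classes was not tested. In bulk RNA a smaller number of cells of a type and less RNA per cell cannot be told apart.

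**Figure D1:**
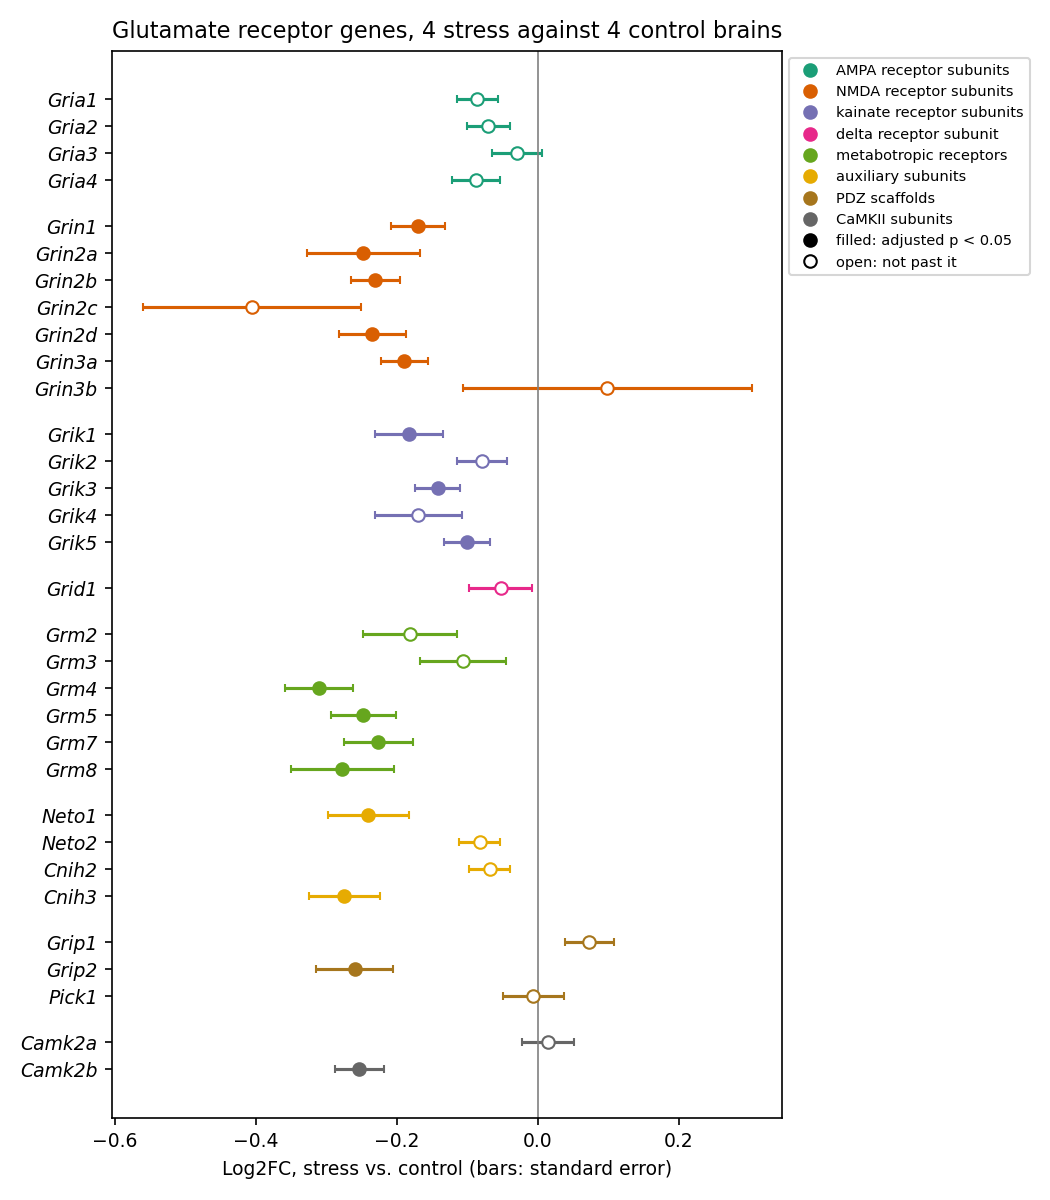
Log2FC (stress vs. control) with its standard error for the 32 tested members, coloured by class, from 4 stressed and 4 control brains. Filled points passed an adjusted p of 0.05: all 16 lie below 0. The 4 AMPA receptor subunits are open and lie between -0.087 and -0.029.

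Among NMDA receptor subunits, *Grin1* encodes GluN1, the subunit every NMDA receptor needs. It measured 51.2, 52.5, 46.0 and 49.8 CPM in the control brains and 46.0, 46.1, 44.0 and 41.4 CPM in the stressed brains. The groups met only at control M30 and stressed F35, and *Grin1* fell by 11.1% (Log2FC -0.17, SE 0.039, adjusted p = 0.0038). Of its exon bases 13.5% lie under another gene, whose reads could not be separated without strand. *Grin2b* (mm10 chr6:135713233-136173511, minus strand) encodes GluN2B, the main partner of GluN1 before birth. It measured 199.9, 207, 197 and 214 CPM in the control brains and 183, 186, 169.7 and 160.2 CPM in the stressed brains. Every stressed brain was below every control brain, the males furthest, and *Grin2b* fell by 14.8% (Log2FC -0.23, SE 0.035, adjusted p = 7.94e-05).

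*Grin2d*, the other GluN2 subunit abundant in the fetal brain, measured 43.7, 45.3, 44.3 and 45.6 CPM in the control brains and 41.5, 38.7, 38.9 and 33.2 CPM in the stressed brains. Again the groups did not overlap, M29 was lowest, and the loss was 15.0% (Log2FC -0.23, SE 0.048, adjusted p = 0.0015). *Grin3a*, which encodes GluN3A, a subunit that lowers the calcium entry of juvenile receptors, measured 84.8, 89.3, 79.9 and 84.4 CPM in the control brains and 76.5, 80.1, 71.3 and 69.2 CPM in the stressed brains. F35 exceeded control M30 by a small margin, and *Grin3a* fell by 12.3% (Log2FC -0.19, SE 0.033, adjusted p = 0.00035).

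*Grin2a*, which encodes the GluN2A subunit that rises after birth, was low at 10.5, 9.63, 10.9 and 10.7 CPM in the control brains and 8.95, 10.3, 7.74 and 8.26 CPM in the stressed brains. Stressed F35 lay among the controls. Its Log2FC of -0.25 (SE 0.080, adjusted p = 0.0404) kept its direction but not its call when any of control F36, M30 or M31 or stressed F34, M28 or M29 was left out, with adjusted p between 0.0651 and 0.156, and DESeq2 gave an adjusted p of 0.109. *Grin2c*, a subunit of the postnatal cerebellum, measured 2.80, 1.94, 2.03 and 2.21 CPM against 1.88, 1.62, 1.43 and 1.83 CPM. All stressed brains were lower, but from 41 to 77 counts per brain the Log2FC of -0.41 had an SE of 0.16 and an adjusted p of 0.0838, and it passed only without control F37 (adjusted p = 0.0496). *Grin3b* stayed below 1.11 CPM in every brain (Log2FC 0.098, SE 0.21, adjusted p = 0.814), and 32.1% of its exon bases are shared with another gene.

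Of the AMPA receptor subunits, *Gria2*, whose edited subunit keeps calcium out of the channel, was the member with the most counts, at 578, 608, 570.4 and 628 CPM in the control brains and 569.9, 589.9, 561 and 552 CPM in the stressed brains. The groups overlapped (Log2FC -0.070, SE 0.030, adjusted p = 0.132), and *Gria2* passed when no filter on low counts was applied (adjusted p = 0.0406, with 4.07% of all genes lower). *Gria1* measured between 153 and 167 CPM in the control brains and between 149 and 154 CPM in the stressed brains (Log2FC -0.086, SE 0.029, adjusted p = 0.0521), and passed without control M30 (adjusted p = 0.0302), without the filter (adjusted p = 0.0379) or without sex in the model (adjusted p = 0.0312). *Gria4* measured 109.6, 112, 111 and 113 CPM against 101, 114, 102 and 102 CPM. Here 3 stressed brains were below all controls and F35 above them. Its Log2FC was -0.087 (SE 0.034, adjusted p = 0.0918), and -0.13 without F35 (adjusted p = 0.0038). *Gria3* had the smallest difference (Log2FC -0.029, SE 0.035, adjusted p = 0.654), which turned to 0.029 when the libraries were scaled to pan-neuronal markers. A p that misses the threshold does not show that these levels were equal.

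Kainate receptors combine GluK1 to GluK3 with the high-affinity subunits GluK4 and GluK5. *Grik3* (GluK3) measured 166, 169.7, 170.4 and 169.7 CPM in the control brains, with an SD of 2.02 CPM, and 164, 147, 155 and 147 CPM in the stressed brains. No stressed brain reached a control, and *Grik3* fell by 9.38% (Log2FC -0.14, SE 0.032, adjusted p = 0.0039). *Grik1* (GluK1) measured 37.6, 35.01, 34.7 and 35.99 CPM against 28.3, 32.6, 32.0 and 33.6 CPM. The groups did not overlap and F34 was lowest. Its Log2FC was -0.18 (SE 0.048, adjusted p = 0.0115), and the call was lost without control F36 (adjusted p = 0.0585) or stressed F34 (adjusted p = 0.0769).

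*Grik5* (GluK5) measured 221, 207, 212 and 207 CPM in the control brains and 208, 192, 204 and 186 CPM in the stressed brains. F34 lay above 2 controls, and the fall of 6.72% (Log2FC -0.10, SE 0.033, adjusted p = 0.0409) did not pass without control F36 or M30 or stressed F35 or M29 (adjusted p from 0.115 to 0.189), nor in DESeq2 (adjusted p = 0.0523). *Grik4* (Log2FC -0.17, SE 0.062, adjusted p = 0.0702) passed without control F37 (adjusted p = 0.035). *Grik2* (Log2FC -0.079, SE 0.036, adjusted p = 0.151) passed without control F36 (adjusted p = 0.0235) or stressed F35 (adjusted p = 0.0283). *Grid1*, the delta receptor subunit that bridges synapses through cerebellins, ranged from 33.4 to 35.9 CPM in the control brains and from 31.5 to 35.6 CPM in the stressed brains (Log2FC -0.053, SE 0.045, adjusted p = 0.496; 0.0051 under pan-neuronal scaling).

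Of the metabotropic receptors, *Grm5* (mGlu5) belongs to the group that acts through Gq and phospholipase C. It measured 112, 114, 109.0 and 118 CPM in the control brains and 90.5, 112, 89.9 and 89.8 CPM in the stressed brains. While 3 stressed brains lay close together below all controls, F35 lay among the controls. *Grm5* fell by 15.8% (Log2FC -0.25, SE 0.046, adjusted p = 0.00067), and without F35 the Log2FC was -0.33. The other 3 that fell are Gi-coupled receptors of the group that is mostly presynaptic. *Grm4* (mGlu4, chr17:27422387-27521403, minus strand) measured 27.5, 27.99, 27.4 and 25.5 CPM against 20.9, 23.7, 21.6 and 21.2 CPM. The groups did not overlap in either sex, and the fall of 19.3% (Log2FC -0.31, SE 0.049, adjusted p = 0.00012) was the largest among called members.

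*Grm7* (mGlu7), which sits in the active zone of terminals, measured 28.1, 28.4, 27.8 and 27.4 CPM in the control brains and 23.3, 26.8, 23.4 and 22.2 CPM in the stressed brains. All stressed brains were lower, F35 by the least, and *Grm7* fell by 14.5% (Log2FC -0.23, SE 0.049, adjusted p = 0.0024). *Grm8* (mGlu8) measured 10.8, 12.7, 12.1 and 12.2 CPM against 8.69, 10.1, 9.69 and 10.99 CPM. Stressed M29 lay just above control F36. Its Log2FC was -0.28 (SE 0.074, adjusted p = 0.0118), and the call was lost without control F37 (adjusted p = 0.0767) or stressed F34 (adjusted p = 0.0589). Of the other Gi-coupled pair, *Grm2* gave a Log2FC of -0.18 (SE 0.067, adjusted p = 0.0727), which passed without stressed M28 (adjusted p = 0.0082) or without the filter on low counts (adjusted p = 0.0486), and *Grm3* gave -0.11 (SE 0.061, adjusted p = 0.275).

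Auxiliary subunits came in pairs of which a single member fell. *Neto1*, which binds kainate and NMDA receptors, measured 24.1, 25.6, 23.5 and 27.0 CPM in the control brains and 20.4, 24.0, 20.7 and 19.97 CPM in the stressed brains. F35 exceeded control M30, and the loss was 15.3% (Log2FC -0.24, SE 0.057, adjusted p = 0.0053). Its kainate receptor relative *Neto2* measured 209, 216, 213 and 225 CPM against 202, 211, 202 and 201 CPM (Log2FC -0.082, SE 0.029, adjusted p = 0.0600), and passed without control F36 (adjusted p = 0.0357) or stressed F35 (adjusted p = 0.0183), or without the filter (adjusted p = 0.0353).

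*Cnih3* (chr1:181352628-181460641, plus strand), a cornichon that slows AMPA receptor deactivation, measured 22.4, 23.1, 21.3 and 21.0 CPM in the control brains and 18.3, 18.6, 18.6 and 17.2 CPM in the stressed brains. The groups were clearly apart, and *Cnih3* fell by 17.3% (Log2FC -0.27, SE 0.050, adjusted p = 0.0005). *Cnih2*, the other cornichon, ranged from 233 to 254 CPM and from 223 to 238 CPM (Log2FC -0.068, SE 0.029, adjusted p = 0.13). The differences between the paired genes were not tested.

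Of the PDZ scaffolds, *Grip2* measured 47.4, 47.6, 43.4 and 48.3 CPM in the control brains and 40.7, 41.6, 41.6 and 32.2 CPM in the stressed brains. No stressed brain reached a control, and M29 was far below the other 3. *Grip2* fell by 16.5% (Log2FC -0.26, SE 0.055, adjusted p = 0.0020), by 0.18 on the log2 scale without M29 (adjusted p = 0.011), and missed the threshold in DESeq2 (adjusted p = 0.0534). *Grip1* was the member with all stressed brains above all controls, at 55.7, 58.3, 58.3 and 59.2 CPM against 62.7, 61.2, 59.7 and 60.2 CPM. Its Log2FC of 0.073 (SE 0.035) did not pass (adjusted p = 0.172). *Pick1* gave a Log2FC of -0.0062 (SE 0.043, adjusted p = 0.949), with 18.6% of its exon bases under another gene.

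*Camk2b* (chr11:5969644-6066362, minus strand), the CaMKII subunit that binds actin and prevails before birth, measured 241, 245, 223 and 252 CPM in the control brains and 212, 204, 204 and 187 CPM in the stressed brains. The groups did not overlap, M29 was lowest, and *Camk2b* fell by 16.1% (Log2FC -0.25, SE 0.035, adjusted p = 2.64e-05). *Camk2a*, the subunit of mature forebrain synapses, measured 54.6, 57.6, 56.3 and 58.1 CPM against 59.0, 60.1, 55.0 and 55.1 CPM (Log2FC 0.015, SE 0.037, adjusted p = 0.852). In the plot of called members by brain, the highest stressed brain was F35 in 10 of the 16 genes and the lowest was M29 in 11. Over all 1298 genes called lower, F35 was highest in 39.0% and M29 lowest in 52.1%.

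**Figure D2:**
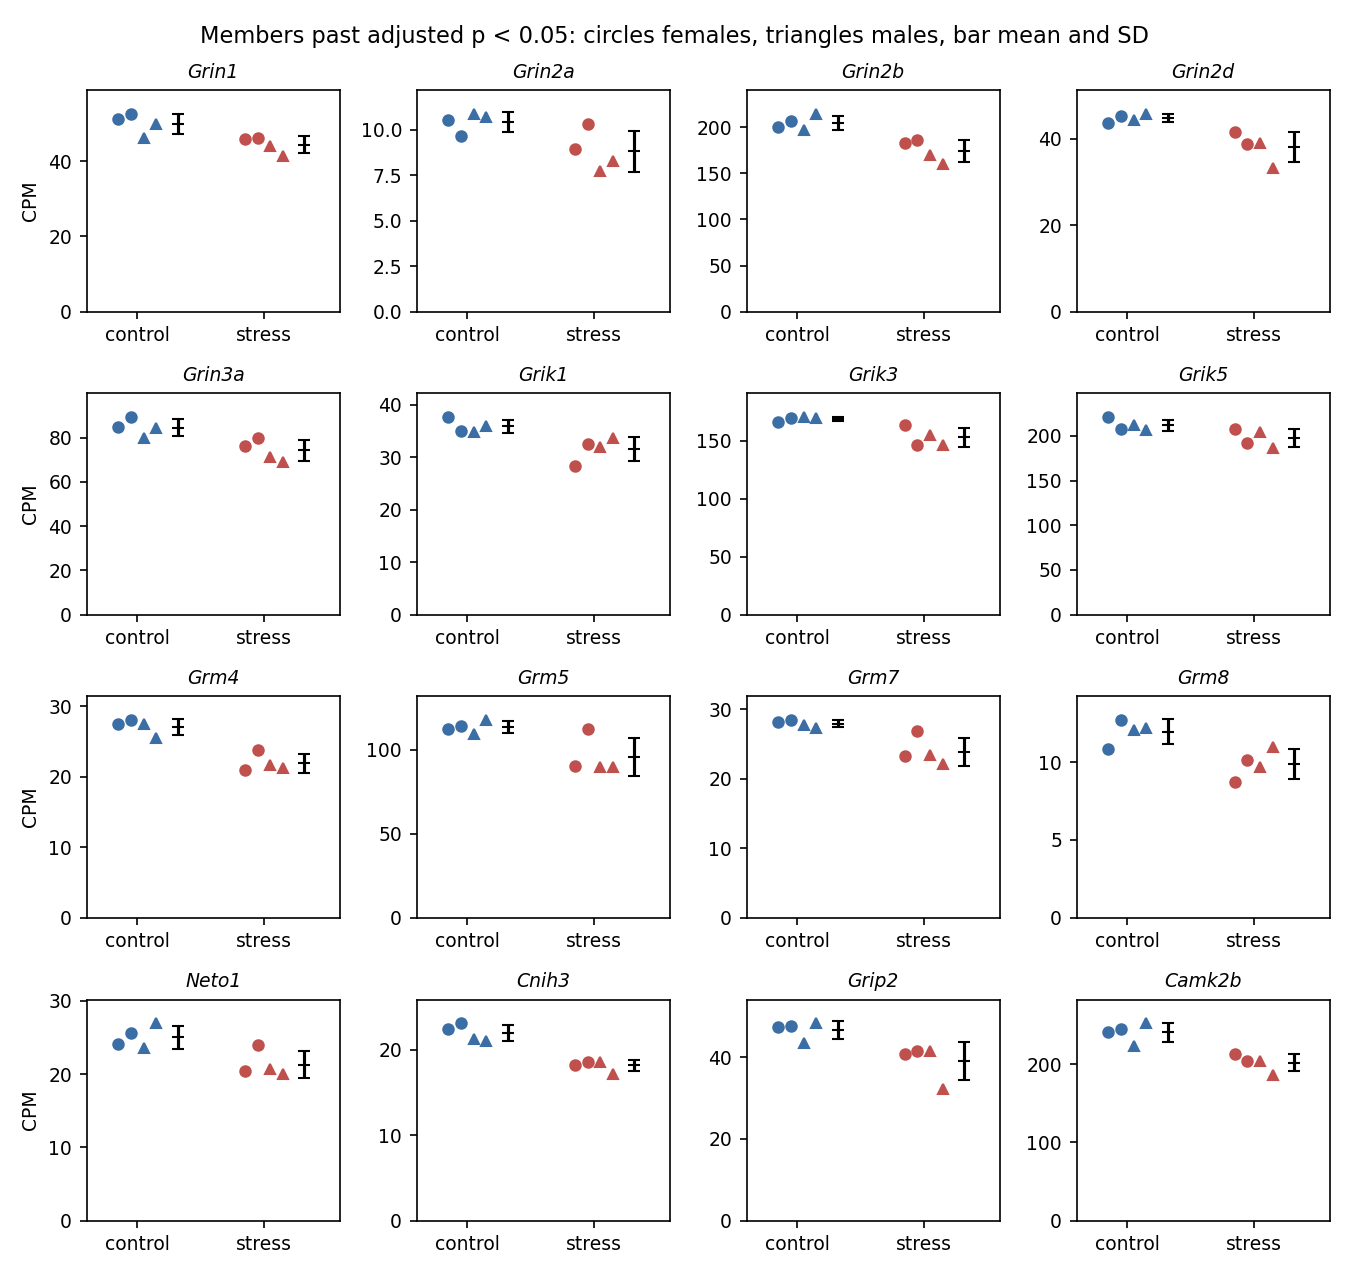
CPM of the 16 called members in each brain, control in blue and stress in red, circles for females and triangles for males, with mean and SD of 4 brains beside them. In 9 of the 16 panels, such as Camk2b and Cnih3, no stressed brain reaches a control; in Grm5 and Grin2a, stressed F35 lies among the controls.

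Levels between genes were compared as CPM per kilobase of all annotated exon bases, which understates genes with long, rarely used exons. *Cnih2* was highest by far in the control brains with 195.5 ± 6.99 (SD, n = 4). Among AMPA receptor subunits the order was *Gria2* with 38.4 ± 1.72, *Gria1* with 26.6 ± 0.95, *Gria4* with 17.7 ± 0.22 and *Gria3* with 5.74 ± 0.22 CPM per kilobase, without overlap between neighbours. The NMDA receptor order was *Grin2b* (8.23 ± 0.32), *Grin3a* (6.89 ± 0.31), *Grin2d* (6.72 ± 0.14) and *Grin1* (5.14 ± 0.29). Only *Grin3a* and *Grin2d* overlapped among these 4, and *Grin2a*, *Grin2c* and *Grin3b* were each below 0.61 in every control brain.

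Kainate receptor subunits ran from *Grik5* (40.95 ± 1.27 CPM per kilobase) over *Grik3* (18.8 ± 0.23), *Grik2* (9.32 ± 0.42) and *Grik1* (5.33 ± 0.19) to *Grik4* (2.82 ± 0.21), with no overlap. *Grm5* led the metabotropic receptors with 11.1 ± 0.35 CPM per kilobase. *Grm3* (5.33 ± 0.40), *Grm7* (4.74 ± 0.078) and *Grm4* (4.53 ± 0.19) followed with overlapping neighbours, then *Grm2* (3.30 ± 0.18) and *Grm8* (1.21 ± 0.081). *Camk2b* stood at 26.3 ± 1.36 and *Camk2a* at 7.59 ± 0.21.

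**Figure D3:**
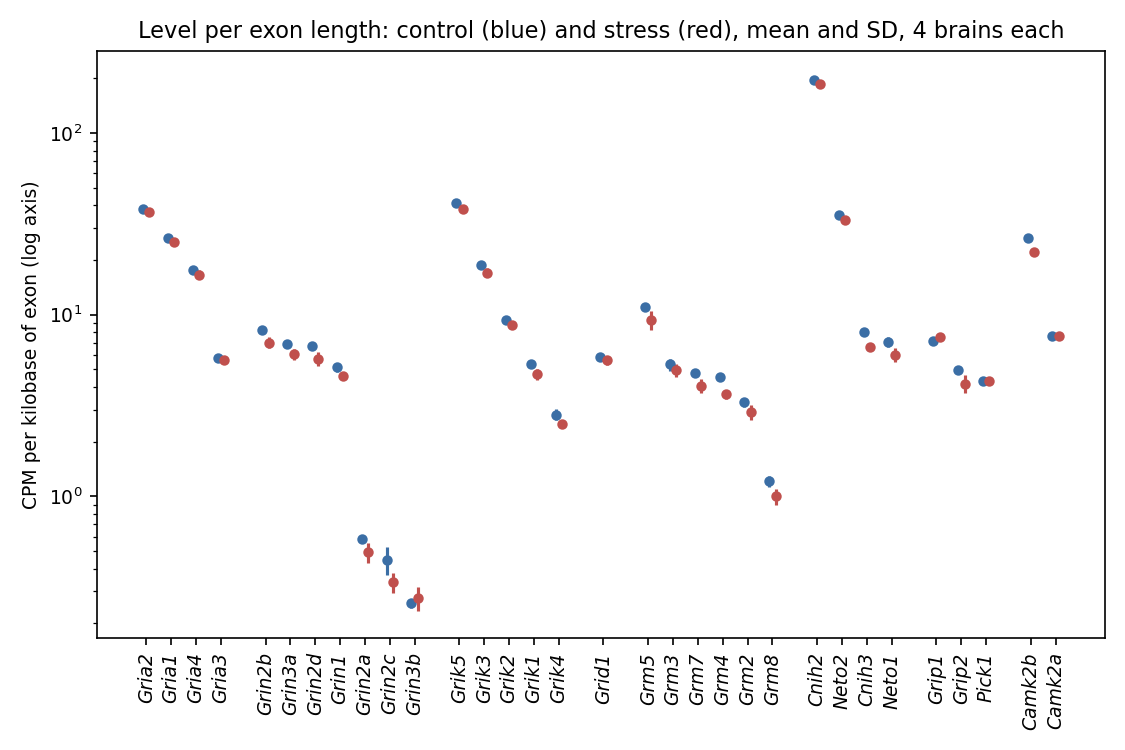
Level of each tested member in CPM per kilobase of exon on a log axis, ordered within its class by the control mean, control in blue and stress in red, as mean and SD of 4 brains. Cnih2 is highest at 195.5 in the control brains, and the order within each class is the same in both groups except for Grip2 and Pick1, which change places.

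The makeup of a receptor family was described by the share of each subunit in the family's summed CPM per kilobase, with no test. *Gria2* made up 43.4% ± 0.70 of AMPA receptor transcripts in the control brains and 43.6% ± 0.28 in the stressed brains. Within the GluN2 subunits *Grin2b* took 51.5% ± 0.66 and 51.8% ± 0.997, and *Grin2d* took 42.1% ± 0.57 and 42.1% ± 1.49. *Grik5* held 53.0% ± 0.996 and 53.6% ± 0.999 of kainate receptor transcripts. In none of these families did the shares of any subunit separate the groups.

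The CaMKII pair differed from this. *Camk2b* made up 78.3%, 77.7%, 76.4% and 78.0% of the summed pair in the control brains and 74.6%, 73.5%, 75.2% and 73.5% in the stressed brains, so all stressed brains were lower. Between families, the ratio of summed NMDA to summed AMPA receptor levels was 0.322, 0.325, 0.318 and 0.314 in the control brains and 0.307, 0.294, 0.291 and 0.274 in the stressed brains. The ratio of *Grin2b* to *Gria2* was 0.215 ± 0.0016 and 0.192 ± 0.0083, again with no overlap, whereas *Grin2b* to *Grin2a* was 14.2 ± 1.06 and 14.4 ± 1.20. These ratios do not depend on the scaling of the libraries.

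**Figure D4:**
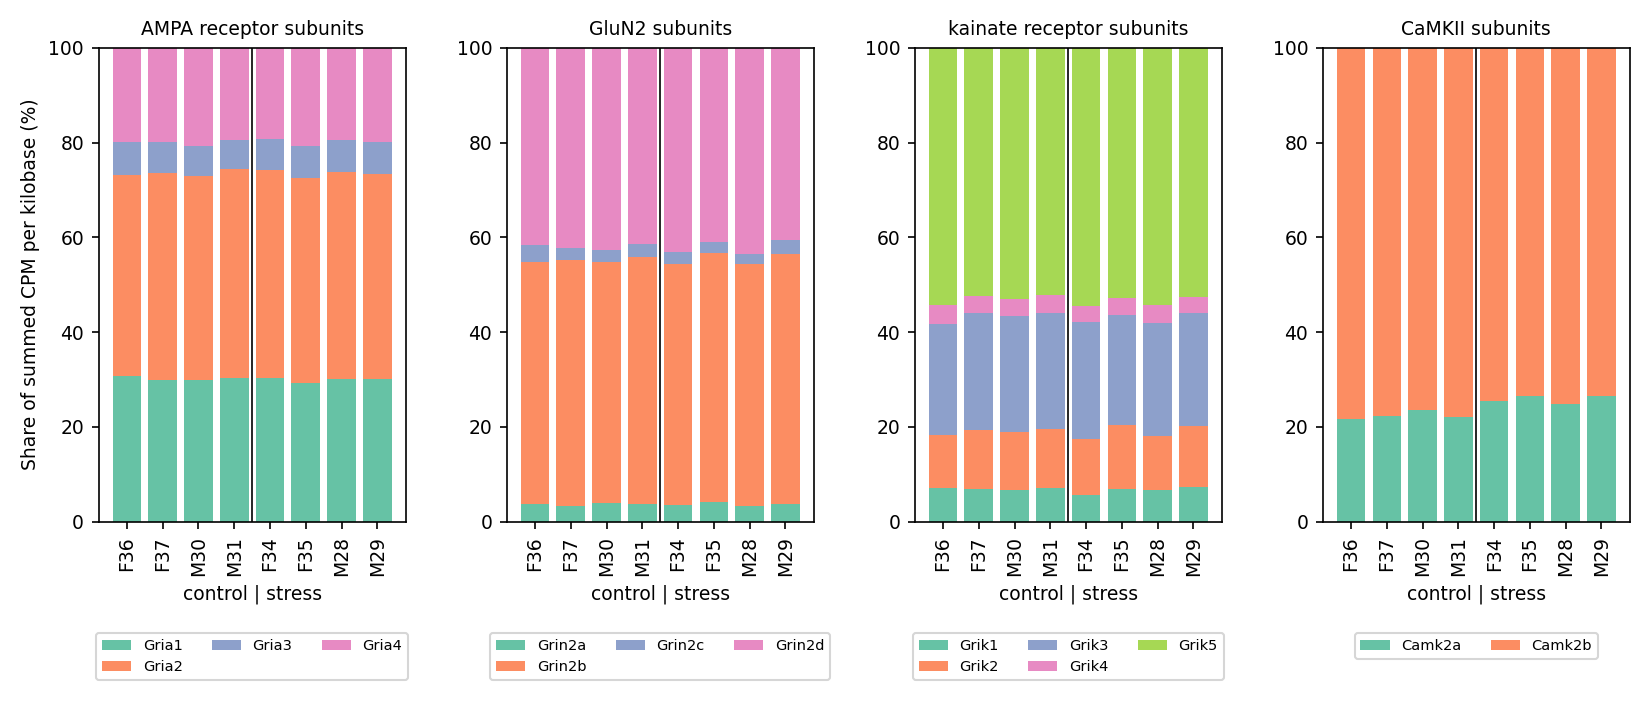
Share of each subunit in its family's summed CPM per kilobase, in percent, for the 4 control brains (left of the line) and the 4 stressed brains (right), in the AMPA, GluN2, kainate and CaMKII families. The bars of the receptor families look alike in both groups; the Camk2b share is 76.4% or more in every control and 75.2% or less in every stressed brain.

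Sex was examined in each member because both groups held 2 females and 2 males. The Log2FC was below 0 in females and in males in 28 of the 32 members, among them all 16 that fell, against 32.3% of 17655 genes with a value in both sexes. With females alone 6 members passed as lower (2.27% of all genes), *Grin2b*, *Grik1*, *Grm4*, *Cnih3*, *Grip2* and *Camk2b*. With males alone 15 passed (4.81% of all genes), *Gria4*, *Grik2* and *Neto2* among them. The fall was larger in males in 11 of the 16 called members, and the share among all genes called lower was not computed.

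*Grin2b* fell by 0.15 on the log2 scale in females (SE 0.041, adjusted p = 0.0386) and by 0.32 in males (SE 0.041, adjusted p = 4.27e-06). *Grm5* had a Log2FC of -0.16 in females (SE 0.058, adjusted p = 0.121) and -0.34 in males (SE 0.042, adjusted p = 3.23e-06). *Grin2a* had -0.067 in females (SE 0.11, adjusted p = 0.816) and -0.43 in males (SE 0.10, adjusted p = 0.0074). *Grik1* ran the other way, with -0.26 in females (SE 0.067, adjusted p = 0.0232) and -0.11 in males (SE 0.060, adjusted p = 0.291).

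The difference between the sexes was tested by the interaction of sex and stress. By the quasi-likelihood test of edgeR 0 members passed, as by DESeq2. At an unadjusted p below the same threshold stood 2 members (6.31% of all genes), *Grin2b* (stress Log2FC in males minus that in females -0.17, SE 0.060, adjusted p = 0.594) and *Grin2a* (-0.36, SE 0.15, adjusted p = 0.695). Only 1 gene of all those tested passed, 0.0056%, and a difference of the stress effect between the sexes was not detected for any member. Between males and females, independent of stress, 0 members passed in edgeR or DESeq2 (0.0896% of all genes in edgeR). Unadjusted, 3 lay below the threshold (5.91% of all genes), *Grin1* (log2 difference, male minus female, -0.11, adjusted p = 0.729), *Grin3a* (-0.12, adjusted p = 0.473) and *Grm3* (-0.13, adjusted p = 0.841).

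**Figure D5:**
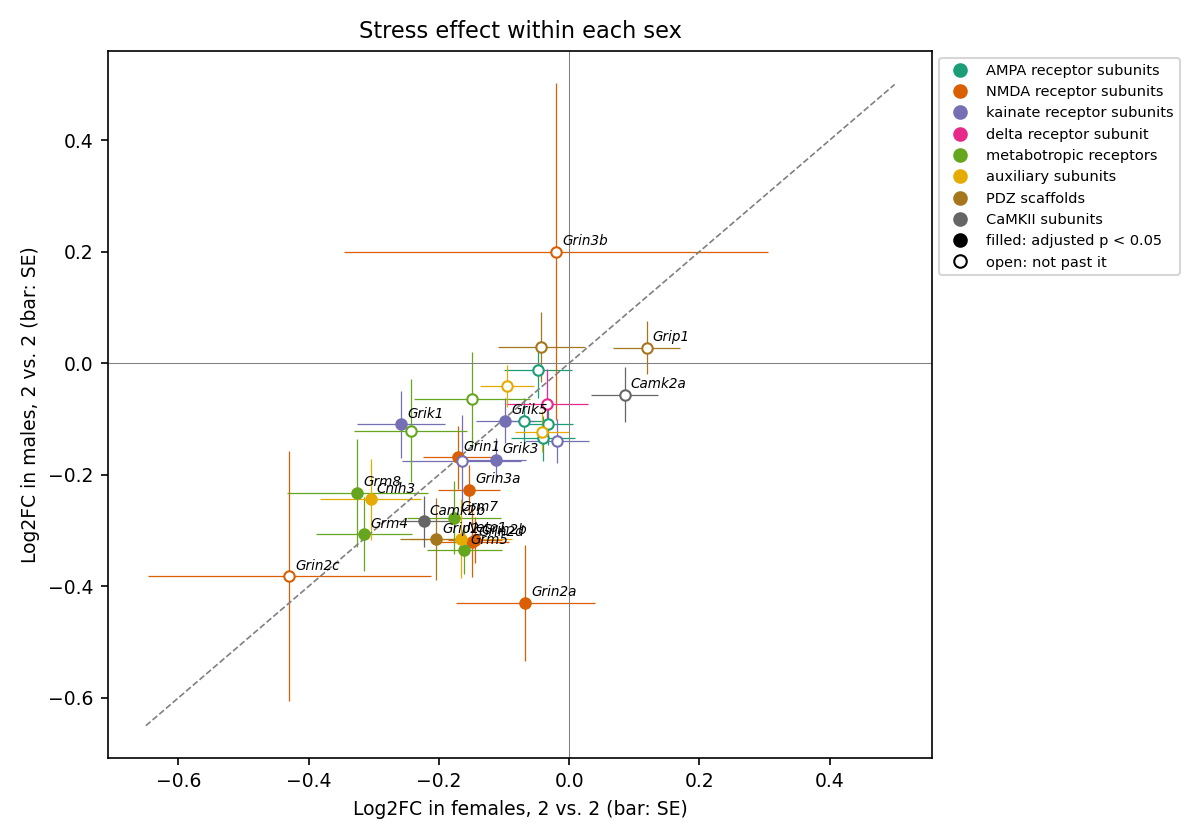
Log2FC (stress vs. control) of the 32 tested members in females (x axis) and males (y axis), 2 brains against 2 in each, with standard errors, and the line of equal change dashed. The 16 filled points, called in both sexes together, all lie below 0 on both axes, 11 of them below the line.

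A wider list of 71 genes of glutamate transport, metabolism, receptor partners and downstream signalling was read from the same fit. Of 70 tested, 26 fell and 0 rose, with a median Log2FC of -0.079, against the 7.27% of all genes called lower and 6.49% called higher. Under pan-neuronal scaling 11 were lower and 2 higher (2.93% and 14.9% of all genes), and in females alone 10 were lower (2.27% of all genes). Other AMPA receptor partners (7 of 17) and calcium and calmodulin signalling (9 of 16) held most of these. Of the vesicular glutamate transporters, which load the transmitter, 0 of 3 passed, before or after adjustment. The smallest p belonged to *Shisa9*, an AMPA receptor auxiliary protein, with 39.8 ± 0.59 CPM in the control brains and 31.9 ± 0.49 CPM in those of the stress group (mean and SD; Log2FC -0.32, adjusted p = 8.4e-06). Its relative *Shisa7* (Log2FC -0.18), the stargazin gene *Cacng2* (-0.16) and the neuronal pentraxin receptor *Nptxr* (-0.16, with 17.2% of its exon bases shared with another gene) also fell. Among calcium-dependent kinases and their regulators, *Prkca* (Log2FC -0.26), *Camkk2* (-0.18) and the CaMKII inhibitor *Camk2n2* (-0.19) fell. Of the glutamate uptake transporters 1 of 4 tested fell, and of glutamate and glutamine metabolism 1 of 10, beside the 7.27% of all genes. The uptake transporter that fell shares 42.6% of its exon bases with another gene. Differences between these lists were not tested.

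Markers of cell types moved in the same brains, where 7.27% of all genes were called lower and 6.49% higher. Of 15 pan-neuronal markers 7 fell and 1 rose, with a summed level of 11270 to 11480 CPM in the control and 10930 to 11340 CPM in the stressed brains. Among those that fell were *Rbfox3* (Log2FC -0.13) and *Snap25* (-0.13). Of 11 radial glia markers 7 rose and 0 fell, with summed levels of 1911 to 2041 and 1986 to 2159 CPM. *Sox2* (Log2FC 0.12) and *Pax6* (0.14) were among those that rose. The other 4, *Hes1* (-0.076), *Hes5* (-0.097), *Fabp7* (-0.016) and *Slc1a3* (-0.037), lay below 0 and were not called. *Hes5* shares 31.8% of its exon bases with another gene. Intermediate progenitor and neuroblast markers rose in 5 of 6, summing to 340 to 367 and 377 to 419 CPM. Lists of neuron types were mixed: of cortical glutamatergic markers 1 of 7 fell and 1 rose (median Log2FC 0.036), of GABAergic markers 0 of 7 fell and 1 rose (0.054), and of Cajal-Retzius markers 2 of 6 fell and 2 rose (0.028). Forebrain markers rose in 4 of 5 and 1 of 7 hindbrain and midbrain markers rose. Oligodendrocyte precursor markers fell in 2 of 5 and astrocyte and glioblast markers in 2 of 7. Endothelial and mural markers fell in 2 of 6, and erythroid markers fell in 1 and rose in 1 of 7. Of microglia markers 0 of 6 passed, before or after adjustment. Meningeal markers rose in 3 of 4 and choroid plexus markers in 2 of 4, but in 0 of these did every stressed brain exceed every control. Meningeal markers summed to 12.4 to 25.7 CPM in the control and 17.0 to 60.0 CPM in the stressed brains. For choroid plexus the sums were 1.76 to 9.25 and 1.80 to 32.2 CPM. The part of all these markers in the lower receptor transcripts was not tested.

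The members were also scaled to the 15 pan-neuronal markers in place of all genes, which moved the median of all genes by 0.058 on the log2 scale. On that scale 11 members were lower and 1 was higher, beside the 2.93% and 14.9% of all genes given above. *Grin1*, *Grin2a*, *Grik1*, *Grik3* and *Grik5* were then no longer called. *Grin2b* (Log2FC -0.17), *Grm4* (-0.25), *Cnih3* (-0.22) and *Camk2b* (-0.19) remained lower, and *Grip1* rose (0.13, adjusted p = 0.0251).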

How the data were processed

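The authors trimmed the paired reads with Trim Galore, used TopHat2 2.1.1 for alignment to mm10, and obtained pairs per gene from GENCODE exons with featureCounts 1.6.3, without strand. The deposited values are raw counts per gene. Reads of a gene and an overlapping or antisense gene cannot be told apart, and shared exon bases are given for named genes where they exceed 10%.

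Genes were filtered with filterByExpr (minimum count 10, by group). After TMM normalization they were tested with glmQLFTest of edgeR 4.0.16 in R 4.3.3, with sex and group in the model and Benjamini-Hochberg adjustment over all 17865 genes. Calls required an adjusted p below 0.05. SE is the size of the Log2FC divided by the square root of F. CPM were computed on TMM-scaled totals. Alternatives were DESeq2 1.42.0, other scalings, no filter, no sex covariate, another prior count, each sex alone and each brain left out. The test was run on simulated counts in which 200 of 17865 genes were changed by 0.5 on the log2 scale. It recovered 73.5% of them, with 9 false calls. That change was larger than the fall of any called member, and no litter effect was simulated. Recovery of smaller changes was therefore not measured. The study's batch term was not used, because no batch is labelled for these brains.

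Samples were grouped by their labels. Litter and tissue entries come from the study's quality table. Members and lists were chosen with earlier results of these data known. All members are named, and of the wider list the 8 genes with the smallest p, of which 1 is not reported here. Of 54752 identifiers 54723 had a symbol. Littermates' libraries differed by more than sampling noise (chi-square per gene 1.99 to 6.28). Pairs of the same sex gave 1.99 to 3.02 and pairs of a female and a male 4.09 to 6.28. The cause was not tested.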

Additional observations from a re-analysis of the deposited data

Results flagged for a closer look

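A brain stood apart from the other 3 of its group, by Dixon's test at the 95% level, in 4 of the 64 gene and group combinations examined, where chance gives about 1 in 20. Stressed female F35 was high in 3 of them. *Gria4* measured 114 CPM in F35 and 101 to 102 CPM in the other stressed brains. *Grm5* measured 112 CPM in F35 and 89.8 to 90.5 CPM in the others. *Neto2* measured 211 CPM in F35 and 201 to 202 CPM in the others. Stressed male M29 was low in *Grip2*, with 32.2 CPM against 40.7 to 41.6 CPM in the others.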

How the results depend on the processing

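The 4 brains of a group are littermates, and members with few counts, such as *Grin2c* and *Grin3b*, had the widest errors. With each brain left out in turn, between 13 and 18 members and between 22 and 30 genes of the wider list were lower. Each of these fits called between 4.74% and 7.22% of all genes lower. Called every time were 12 of the 16 members, and the share of all genes called every time was not computed. DESeq2 called 13 of the 16. RLE, upper-quartile scaling and a prior count of 2 changed no member's call, and without a filter on low counts 20 members were lower. Scaled to pan-neuronal markers, 11 genes of the wider list were lower and 2 higher, and 1 member was higher. On that scale 4 members had every stressed brain below every control brain, and the share of all genes was not computed. In females alone 6 members and 10 genes of the wider list were lower. Without division by exon length the shares in the control and stress groups were 64.5% and 64.6% for *Gria2*, 78.1% and 78.2% for *Grin2b*, 38.0% and 38.4% for *Grik5* and 80.9% and 77.9% for *Camk2b*. Some Log2FC values, none past the threshold, changed sign. Pan-neuronal scaling gave 0.029 for *Gria3*, 0.0051 for *Grid1* and 0.052 for *Pick1*, and females alone gave -0.020 for *Grin3b*. Leaving out single brains moved *Pick1* between -0.028 (without control M31) and 0.016 (without control F37), with 0.0030 without stressed F34, and *Camk2a* between -0.016 (without control F36) and 0.038 (without control M31), with -0.0059 without stressed F35. In males alone *Pick1* was 0.029 and *Camk2a* -0.056. The causes were not tested. A fit without the sex covariate is not possible for the sex and interaction tests. No paired analysis was possible because the groups share no replicate number.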
